A study of Mus musculus with 4 samples.

Results

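Extract-to-extract differences were described in spinal cord of control mice, the unaffected animals of a study of adoptive-transfer experimental autoimmune encephalomyelitis (AT-EAE). In AT-EAE, T cells that recognise myelin are injected into healthy mice and cause inflammation of the cord, as a model of multiple sclerosis. The arrays were chosen by their labels, as the 2 control spinal cord arrays of 4 arrays in all. The other 2 held AT-EAE cord. Every animal was an adult SJL/J female, and each RNA extract came from the pooled cords of 2 mice, so the 4 control extracts stood for 8 mice. Total RNA was hybridised to 2-colour spotted cDNA arrays, with control extracts 1 and 2 in the channels of control array 1 and control extracts 3 and 4 in those of control array 2. How the control animals were treated was not given in the labels.

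Each deposited value was taken as a log2 ratio between the channels, and thus between 2 pools of control mice. A ratio of 1 is a 2-fold difference if the logarithm is to base 2, which the sources used here do not state. Nor do they state which extract was the numerator, so a sign has meaning relative to other genes of the same array alone. Since both channels of an array held cord of the same group, no difference in level between control and AT-EAE cord can be read from these values. In whole cord, fewer cells of a type and less RNA per cell cannot be told apart.

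Spinal cord holds neurons, astrocytes, myelin-forming oligodendrocytes, microglia and vessels, and a pool can differ from the next in the share of each, in blood left in the tissue, in the state of the animals and in RNA quality. The proteins of the cytosolic ribosome and the subunits of the mitochondrial respiratory chain, are expressed in every cell. Their transcripts are abundant, and messages for subunits of the same complex tend to be regulated together. Many ribosomal protein messages begin with a run of pyrimidines, the 5′ terminal oligopyrimidine tract, through which their translation responds to growth signals.

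The arrays had 28704 spots, of which 18511 were assigned to 1 gene, 937 to several and 9256 to none, and the assigned spots covered 10225 genes. Over genes, the ratios of control array 1 had a Spearman correlation of 0.10 with control array 2 (8081 genes), 0.13 with AT-EAE array 1 and 0.33 with AT-EAE array 2 (5559 genes). Those of control array 2 had one of 0.33 with AT-EAE array 1 (7125 genes) and 0.01 with AT-EAE array 2. Each control array thus resembled an AT-EAE array, with which it shared no extract, more than it resembled the other control array. After subtraction of the median of each spot's place, described with the place pattern, the 2 higher correlations were 0.29 and 0.30. These describe genes of single arrays, and genes are not independent replicates.

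Most genes gave a value in control cord. On control array 1, 21139 spots (73.6%) had a value, and on control array 2, 18565 (64.7%). They gave ratios for 8818 genes (86.2%) and 8187 genes (80.1%). Values were nested: 18146 spots had one on both arrays, which was 85.8% of those of control array 1 and 97.7% of those of control array 2. Another 2993 had one on control array 1 alone, 419 on control array 2 alone and 7146 on neither. Values were more often present for genes with more spots. Of the 5159 genes with 1 spot, 75.9% were measured on control array 1 and 67.0% on control array 2, against 99.3% and 97.8% of genes with 3 or more spots. Control arrays had a mean share of spots with a value of 69.2% ± 6.34 (SD, n = 2), and AT-EAE arrays one of 46.0% ± 11.9 (SD, n = 2). The gap of 23.1 points had a 2-sided exact permutation p of 0.333, the smallest that 4 arrays allow.

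Gene families differed in how completely they were measured, as the plot of value presence by family shows. Cytosolic ribosomal proteins had values at 109 and 108 of 109 spots on control arrays 1 and 2. Subunits of the proteasome, which degrades ubiquitin-tagged proteins, had them at 72 and 71 of 73 spots, and splicing factors at 111 and 107 of 118. Markers of the resident cells differed by cell type. The neuron list had 26 and 22 of 26 spots, the astrocyte list 26 and 28 of 29, and the oligodendrocyte and myelin list 14 and 15 of 16. The microglia and macrophage list had 18 of 26 spots on each array, and the endothelium and pericyte list 15 and 13 of 20. Both lay near the shares over all spots, but below those over spots assigned to 1 gene, 80.9% and 72.9%. Families of low or restricted expression were less complete than the ribosomal, proteasome and splicing families. The Zfp zinc finger genes, mostly transcription factors of low abundance, had values at 72.7% and 63.7% of 278 spots. These too were near the shares over all spots and below those over spots assigned to 1 gene. Voltage-gated ion channel genes had values at 33 and 26 of 44 spots, also below the shares over spots assigned to 1 gene. Keratins had them at 4 and 3 of 12 spots, and the testis and oocyte list at 8 and 4 of 16.

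Interleukin genes had fewer values on control array 2. Interleukins and their receptors had values for 12 of 20 genes on control array 1 and for 5 of 20 on control array 2, the latter being Il7r, Il6st, Il1rl2, Il3ra and Il1f6. Il4, Il33, Il10ra and Il15ra were among the 7 genes with a value on control array 1 alone. The T cell list had a value for 1 of its 4 genes on each control array. Cd4, Cd28 and Zap70, the helper T cell coreceptor, a costimulatory receptor and a T cell receptor kinase, had none on either. A spot without a value is not a spot without RNA, because the filter the authors used is not given in the sources used here. Liver genes, which cord should lack, had values for 7 of 13 genes on each control array, so a value alone does not mark expression.

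Ratios between control pools were small for most genes. They include scatter that spots of the same gene did not share, so their size is not that of pool differences alone. Among genes with several spots, the standard deviation on control array 1 was 0.24 within a gene and 0.04 between genes. For control array 2 it was 0.28 and 0.14. The absolute ratio had a median of 0.12 on control array 1 and 0.15 on control array 2, and 72.4% and 61.3% of genes lay within 0.2 of 0. The spread over genes was 0.18 and 0.23, as a standard deviation scaled from the median absolute deviation. Genes at 2-fold or more numbered 12 on control array 1, all of them low (0.136% of 8818 genes, with 0% at 2-fold high). On control array 2 they numbered 32, of which 30 were low (0.366% of 8187 genes) and 2 high (0.0244%). At 1.5-fold, 120 genes were low (1.36%) and 29 high (0.329%) on control array 1, and 233 low (2.85%) and 36 high (0.44%) on control array 2. The lower tail was thus longer than the upper on both arrays, as the histogram of gene ratios shows.

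**Figure D1:**
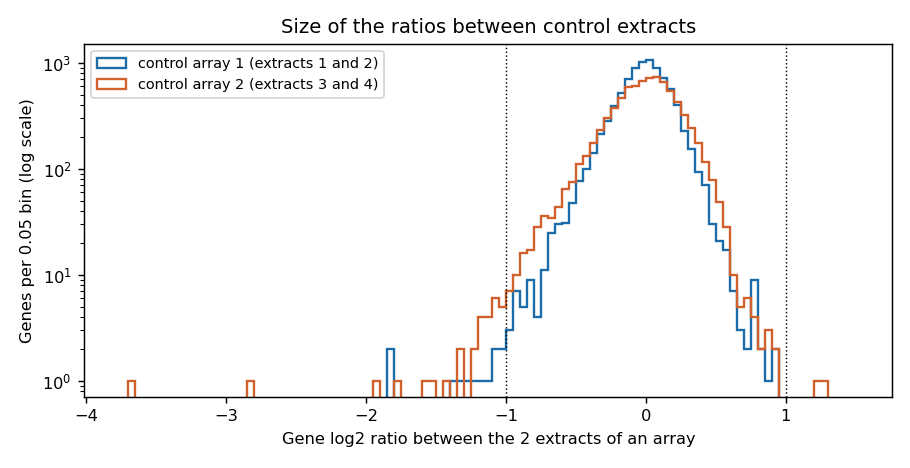
Number of genes per bin of 0.05 (vertical axis, log scale) by the log2 ratio between the 2 extracts of an array (horizontal axis) for control array 1 and control array 2, with dotted lines at 2-fold. Control array 2 is wider, both arrays have a longer lower tail, and the 12 and 32 genes at 2-fold lie outside the lines.

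Most of these extremes rested on a single spot. This held for 10 of the 12 genes on control array 1 and 27 of the 32 on control array 2. Single spots were common among all genes too. On control array 1, 3943 of 8818 measured genes had 2 or more measured spots, and on control array 2, 3472 of 8187 did. Ift80, a component of intraflagellar transport in cilia, had the lowest ratio of any gene on control array 2 at -3.68, from 1 spot, and was at -0.11 on control array 1. Tmem177, a mitochondrial membrane protein, was at -2.84 on control array 2 from 1 spot and had no value on control array 1. Il3ra, the interleukin 3 receptor alpha chain, was at -1.85 on control array 1 and at -0.11 on control array 2, each from 1 spot. Csrp3, a muscle LIM protein, was at -1.29 on control array 1 as the mean of spots at -2.57 and 0.00, so its spots did not agree. Hdlbp on control array 2 was the 1 gene whose spots, when it had several, were all past 2-fold. Rab5c, an early endosome GTPase, came next to this on the high side, with spots at 1.58 and 0.95 on control array 2 and at 0.46 and 0.28 on control array 1. These single genes, apart from Hdlbp, were picked after their values were seen.

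Few extreme spots were at 2-fold again in the second pair of pools, though a larger share than among all spots. Of 75 spots at 2-fold on control array 1, 47 had a value on control array 2, and 3 of these were at 2-fold there. Over all spots of control array 2, 0.84% were at 2-fold. Of the 47 spots, 36 were negative on control array 2. Of 156 spots at 2-fold on control array 2, 141 had a value on control array 1, and 73 of these were negative there. Spots with values on fewer of the 4 arrays had wider ratios. On control array 2 the spread was 0.40 for spots with a value there alone (260 spots), 0.30 and 0.27 for spots with values on 2 and 3 arrays, and 0.23 for the 10133 spots with values on all 4. On control array 1 it was 0.25 for 2249 spots with a value there alone and 0.20 for those with values on all 4. Spot brightness, which could not be read from the files, was not tested as a source of this.

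The place of a spot on the array moved with its ratio. Spot numbers fell into 48 blocks of 598, each of 23 rows of 26, a layout inferred from the numbering. Spots 26 numbers apart had a Pearson correlation of 0.21 on control array 1 (17263 pairs) and 0.22 on control array 2 (13916 pairs), against 0.01 and 0.00 for spots 5 numbers apart. Spots at places 6 to 17 of a row had a median of 0.04 on each control array, and spots at places 19 to 26 medians of -0.08 and -0.09. Spots at place 1, of which 36 of 1104 were assigned to 1 gene, had a median of -0.37 on control array 1, with 10 of the 75 spots at 2-fold among its 117 values. AT-EAE arrays showed the same course, with 0.05 and 0.01 at places 6 to 17 and -0.07 and -0.19 at places 19 to 26. Subtracting the median of each place lowered the spread over spots slightly, from 0.21 to 0.20 on control array 1 and from 0.26 to 0.25 on control array 2.

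Control array 1 also carried a narrow local streak. Block 43 held 12 of its 75 spots at 2-fold, against a median of 1 per block and at most 5 in any other block. All 12 were low and lay at places 2 to 4. At place 3 of that block, 22 of 23 spots had a value, with a median of -0.89, a lowest value of -2.40 and 8 past 2-fold. The same place had a median of -0.04 over the other blocks. At places 5 to 8 the block had no spot at 2-fold lower. At place 1, 1 of 23 spots had a value. The named genes with a spot in the streak were Ppm1a, Timm10, Ulk1, Vps54, Akap13, Prss23 and Gpr174. For Ppm1a, a protein phosphatase, the streak spot was at -2.40 and the mean of the other 9 spots was 0.02. For Ulk1, the kinase that starts autophagy, it was at -2.35 and the other 2 spots were at 0.15 and 0.37. For Timm10, a chaperone of mitochondrial import, it was at -1.78 and the other spot at -0.04. On control array 2 the same spots of these 3 genes were at 0.13, -0.16 and 0.48, none of them near 2-fold. Prss23 and Gpr174, a serine protease and a G protein-coupled receptor, rested on streak spots alone and made up 2 of the 12 genes at 2-fold on control array 1.

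**Figure D2:**
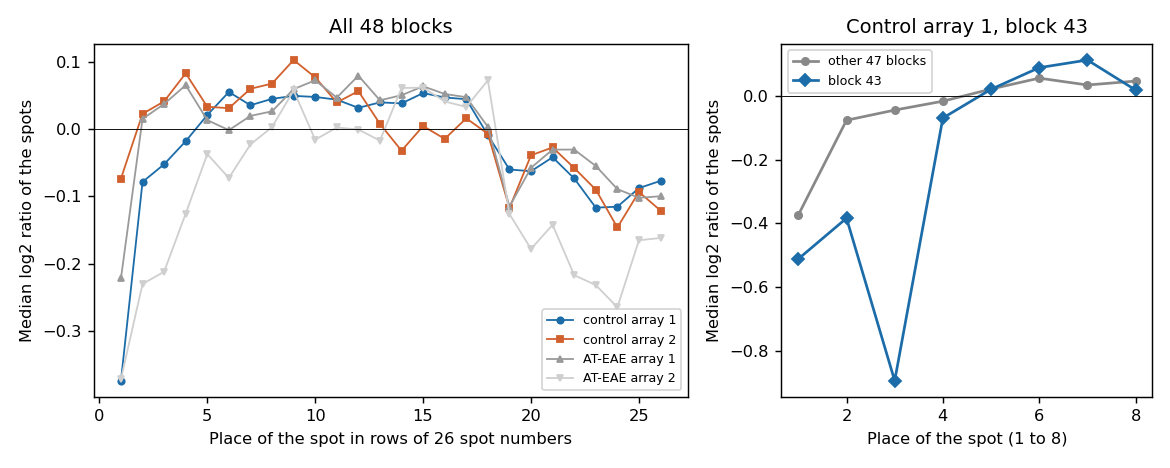
Left, median log2 ratio of the spots (vertical axis) by their place in rows of 26 spot numbers (horizontal axis) for both control and both AT-EAE arrays. Right, the same for places 1 to 8 of block 43 (diamonds) and of the other blocks (circles) on control array 1, where place 3 of block 43 reaches -0.89 against -0.04 elsewhere.

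How far the spots of a gene agreed differed between the control arrays. A sister spot is another spot of the same gene, usually a different cDNA clone. On control array 1, the between-gene share of the variance among spots, the intraclass correlation, was 0.03 (3943 genes, 10104 spots), with standard deviations of 0.04 between genes and 0.24 within. On control array 2 it was 0.21 (3472 genes, 8784 spots), with standard deviations of 0.14 and 0.28. The standard deviation within a gene was of similar size on both, and that between genes was larger on control array 2. The AT-EAE arrays had 0.12 and 0.16. Control arrays had a mean of 0.12 ± 0.12 (SD, n = 2) and AT-EAE arrays one of 0.14 ± 0.03 (SD, n = 2), a difference of -0.02 with a 2-sided exact permutation p of 1 (0.333 is the smallest possible). Without control array 1 the difference was 0.07, with the opposite sign.

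Pairs of spots gave the same picture. Pairs with different accessions had a correlation of 0.03 on control array 1, with the same sign in 51.8% of 9361 pairs, and of 0.23 on control array 2, with the same sign in 57.4% of 7887. The 98 measured pairs that shared an accession had correlations of 0.18 and 0.31 and the same sign in 57.1% and 68.4%. Of the 107 such pairs on the platform, 103 lay at the same place of a row, so place was shared within them. After subtraction of the place medians their correlations were 0.16 and 0.28. Removing ribosomal and respiratory chain genes, which are described with the families, left the intraclass correlations at 0.03 and 0.19.

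Single genes were chosen for description among those with 3 or more measured spots, all of the same sign. Agreement in sign was therefore the rule by which they were chosen, and some genes agree by chance, the more so with few spots. There were 314 of 1480 such genes on control array 1 (21.2%) and 410 of 1260 on control array 2 (32.5%). Of the 314, 138 were low and 176 high, with 1 at 1.5-fold. Of the 410, 258 were low and 152 high, with 22 at 1.5-fold, 21 of them low. Among 1212 genes with 3 spots on both arrays, 99 had spots of the same sign on each array. Their sign was the same on both arrays for 55 genes, 27 low and 28 high, and opposite for 44. The numerator being unknown, these counts do not compare directions between the pairs of pools.

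The lowest genes with agreeing spots on control array 2 were Hdlbp and Smc1a. Hdlbp, the KH-domain RNA-binding protein vigilin, had spots at -1.10, -1.28, -1.28 and -1.71, a mean of -1.34 ± 0.26 (SD over 4 spots). On control array 1 its spots were at -0.01, -0.79, 0.07 and 0.04, so 3 of its 4 spots lay near 0 there. Smc1a, a core subunit of the cohesin ring that holds sister chromatids together, had spots at -1.35, -0.67 and -1.55 on control array 2 (mean -1.19). On control array 1 these were at -0.23, 0.08 and -0.77. Gtf2f1, a subunit of the general transcription factor TFIIF, had 3 tightly grouped spots between -0.90 and -0.72 (mean -0.81 ± 0.09, SD). Chd6, a chromodomain helicase, lay between -0.88 and -0.60 (mean -0.77).

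Srp72, of the signal recognition particle, was at -0.81 with spots from -1.12 to -0.60, the nucleolar phosphoprotein gene Nolc1 at -0.78, and Rif1, which acts in replication timing and DNA repair, at -0.73. Apc, a scaffold of the Wnt pathway, had spots at -1.39, -0.15, -1.53 and -0.57 (mean -0.91). Chd4, the helicase of the NuRD chromatin remodelling complex, had a mean of -0.91 that 1 spot at -2.15 made, with the others at -0.31 and -0.25. Atf2, a stress-activated transcription factor, was likewise at -0.74 with spots from -1.63 to -0.26. For control array 1, the means of these 10 genes lay between -0.31 and 0.19. Bclaf1, an RNA-processing factor with 7 spots, was low on control array 2 at 6 of 7 spots, with a mean of -0.65 and a range from -1.30 to 0.02. It was chosen as 1 of the 3 genes with the most spots on both arrays.

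High genes with agreeing spots on control array 2 were smaller in size and included parts of the respiratory chain and the ribosome. Rps10, a small ribosomal subunit protein, had the highest mean at 0.89, but its spots were at 0.06, 1.78 and 0.84. Ndufb5, a complex I subunit, had spots at 0.46, 0.32 and 0.42 (mean 0.40 ± 0.07, SD), and on control array 1 at 0.23, -0.03 and 0.24. Uqcrc2, a core protein of complex III, had a mean of 0.40 over 4 spots and Rpl23a, of the large ribosomal subunit, 0.34. Dad1, a subunit of the oligosaccharyltransferase that glycosylates nascent proteins, lay between 0.33 and 0.42 (mean 0.36). Dad1 also had spots of a single sign on control array 1 (mean 0.24), as did Itm2b, Wsb2 and Swi5. Hspa4, an Hsp110-type chaperone, was at 0.34, and Dgcr6, Rab24 and Itm2b were at 0.40, 0.39 and 0.38.

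In the values of control array 1, agreement was rarer and the ratios smaller. Malat1, an abundant nuclear noncoding RNA, was low at all 4 spots, at -0.46, -0.41, -0.56 and -0.50 (mean -0.48 ± 0.06, SD). On control array 2 its spots spread from -0.56 to 0.07 (mean -0.17). Of these 4 spots, 3 lay at places 21 to 23, where the place medians were -0.04 to -0.12, and after subtraction of the place medians the mean was -0.44. B2m, the light chain of MHC class I, was high at all 3 spots, at 0.67, 0.53 and 0.49 (mean 0.56 ± 0.09, SD). For control array 2, the same spots were low, at -0.15, -0.24 and -0.33. B2m therefore parted from the array median in opposite directions on the 2 control arrays. With the numerator unknown, the directions cannot be compared between arrays. The part of dye or technical noise in these ratios was not tested.

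Vcp, an ATPase that extracts ubiquitylated proteins, was high on control array 1 with spots at 0.17, 0.94 and 0.54 (mean 0.55). Chd3, a further NuRD helicase, Supt6, a histone chaperone of transcribing polymerase, and Mtf1, the metal-responsive transcription factor, had means of 0.42, 0.40 and 0.37. In the values of control array 2, they were at -0.42, -0.18 and -0.42. Cabin1, an inhibitor of calcineurin, had the tightest spots of the 10 highest, between 0.28 and 0.37 (mean 0.33). Crebbp, a histone acetyltransferase with 8 spots on control array 1, was positive at 8 of 8 (mean 0.23) and at 2 of 7 on control array 2 (mean -0.30). The low end held Vps54, a subunit of the GARP tethering complex, whose mean of -0.74 came to a large part from the streak. Its streak spot was at -2.08 and the others averaged -0.29. Afm, an albumin-family carrier, was at -0.49, the cell cycle kinase gene Cdk2 at -0.45 and the lysosomal membrane protein gene Lamp1 at -0.45 with spots from -1.10 to -0.09. Snrnp27, of the spliceosomal tri-snRNP, had spots at -0.43, -0.55 and -0.30.

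**Figure D3:**
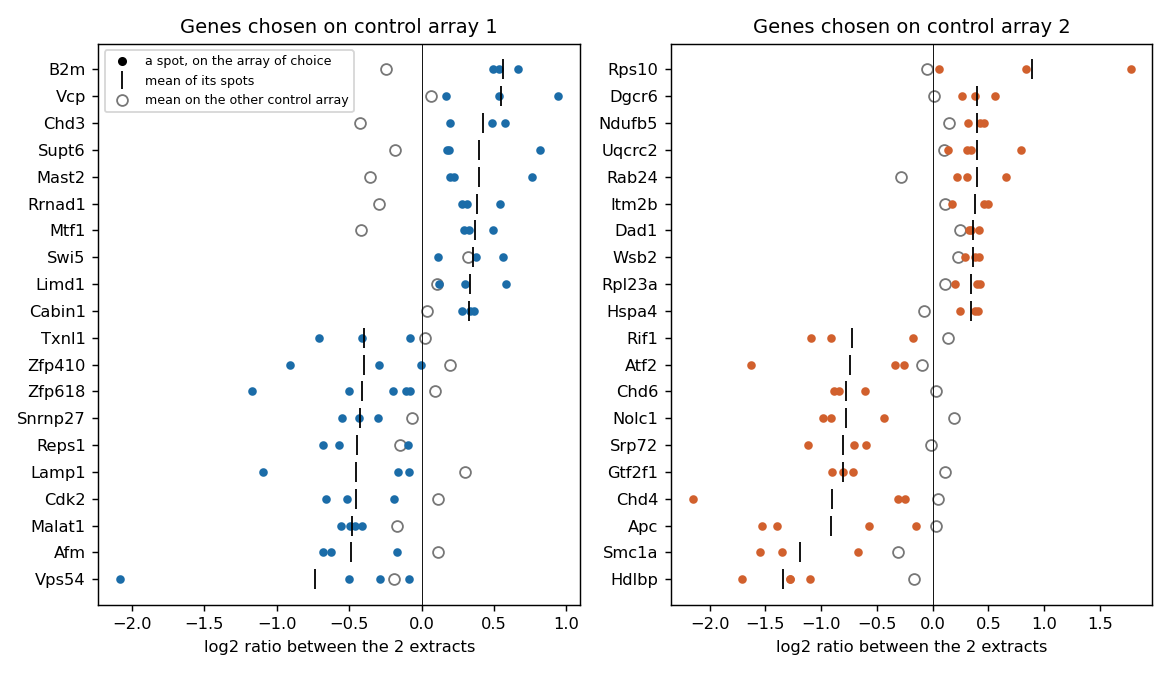
Log2 ratio (horizontal axis) of each spot (points) and the mean of the spots (bars) for the 10 lowest and 10 highest genes with at least 3 spots of a single sign on control array 1 (left) and control array 2 (right). Open circles give the gene's mean on the other control array. Spots of Hdlbp, Gtf2f1, Malat1, B2m and Ndufb5 lie close together, while Vps54 and Chd4 each have a spot past -2.

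Spots of other genes disagreed. Among genes with at least 3 spots, the widest ranges on control array 1 were those of Ulk1, Ppm1a, Vps54, Tgs1 and Aebp2, and the first 3 had a spot in the streak. Tgs1, which trimethylates the cap of small nuclear RNAs, ran from -1.82 to 0.21. Over control array 2, they were those of Rere, Aak1, Taok1, Trim37 and Chd4. Aak1, a kinase of clathrin adaptors, had 5 spots from -2.11 to 0.32, and Rere, a nuclear receptor corepressor, 6 spots from -2.27 to 0.19, of which 4 were positive. The annotation does not give the part of each transcript that a clone covers, so differences between transcript ends were not tested.

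A Shmt2 spot was low on every array. Shmt2 makes glycine and folate-bound carbon units from serine in mitochondria. The spot was at -2.06 and -1.83 on control arrays 1 and 2, and the gene's other spot was at 0.06 and -0.25. Limma tested the mean ratio of both control arrays against 0. Because the arrays held different extracts, this can find what their channels share and not a difference between pools. Of 18146 spots with values on both control arrays, 992 had an unadjusted limma p under 0.05. That is near the number this threshold would pass with no ratio shifted. Limma called the Shmt2 spot alone (0.00551%), with a mean of -1.95, a standard error of 0.16 and a limma Benjamini-Hochberg adjusted p of 0.0106. The spot was also low on the AT-EAE arrays, at -2.81 and -3.11, so its ratio did not go with a particular pair of pools. The part of the dye or channel in it was not tested. Spots at 2-fold on both control arrays numbered 3. Beside the Shmt2 spot they were a spot of Cnppd1, a cyclin-like membrane protein, at -1.14 and -1.68, and a spot with no gene that was high on control array 1 and low on control array 2. The Cnppd1 spot was also low on the AT-EAE arrays, at -2.55 and -2.82, so its ratio too did not go with a particular pair of pools. The other Cnppd1 spots were at 0.28 and 0.15 on control array 1 and at -0.04 and 0.15 on control array 2.

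Of 59 families and marker lists with at least 5 genes measured on both arrays, 12 had a median at least 0.1 from that of all genes on control array 1, 6 above and 6 below. For control array 2, 19 did, 15 above and 4 below. In all, 5 lay beyond 0.1 with the same sign on both arrays, 3 above and 2 below. The numerator being unknown, a shared sign does not give a shared direction between pools. Above were the hemoglobins, the astrocyte list and the red blood cell list, which shares globins with the hemoglobins. Below were interleukins and chemokines, each with their receptors. After subtraction of the place medians, the hemoglobins alone stayed beyond 0.1 on both arrays. On control array 1 the medians were then 0.088 for red blood cell, 0.097 for astrocyte, -0.095 for interleukin and -0.067 for chemokine genes. Medians of families are given relative to the median of all genes of the array, and members as deposited.

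The cytosolic ribosome stood above the array median on control array 2 and near it on control array 1. Of 57 ribosomal protein genes, 53 lay above on control array 2, with a median of 0.25, and 37 on control array 1, with a median of 0.03. By definition about as many of all genes lie above the array median as below. Both subunits took part. In the values of control array 2, the large subunit had 33 of 36 genes above (median 0.24) and the small subunit 20 of 21 (median 0.36). At 1.5-fold high were 5 of the 57 genes, against 0.44% of all genes, and none were low. These 5 were Rps10 at 0.89, Rps3 at 0.86, Rps29 at 0.73, Rps20 at 0.63 and Rpl36 at 0.60. Over control array 1, they were at -0.05, 0.25, 0.03, -0.07 and 0.11, so the members that were high on control array 2 spread around 0 on control array 1. Rps4l, a copy of the X-linked Rps4x, was at -0.41 on control array 2 and was the 1 small subunit gene below the array median there. It was at 0.58 on control array 1. Ribosomal protein genes have many processed copies, and cDNA spots could hybridise to more than 1 of them.

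Sister spots of ribosomal protein genes were compared within each gene. Over control array 2, 34 ribosomal protein genes had several measured spots, and in 25 of them all spots lay on the same side of the array median. For control array 1, this was so for 12 of 35. Of the family's measured spots, 95 of 108 lay above the array median on control array 2 and 66 of 109 on control array 1. With most spots above, those of a gene often share a side through the shift of the family alone. These counts therefore do not show separately that sister spots agree, and the share over all genes is not given here. The 4 spots of Rpl15 and of Rpl35 had means of 0.31 and 0.37 on control array 2, and the 5 of Rpsa, the laminin receptor homologue of the small subunit, one of 0.22. On the AT-EAE arrays the median of ribosomal proteins was -0.03, with 23 of 56 genes above, and -0.09, with 16 of 55 above.

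The start regions of ribosomal protein genes are shown for the pyrimidine run known from many ribosomal messages, which some of these windows hold. Promoter windows from RefSeq (GRCm38.p6) were matched for 43 of the 57 genes, and the 30 bases from 20 before to 10 after the annotated start were read on the gene's strand. The following 5 are those with a run of at least 5 pyrimidines over the first transcribed base, the motif CTTNC on the gene's strand and the highest ratios on control array 2. Capitals mark the run.
Rps10, chr17:27635235-27635264, minus strand: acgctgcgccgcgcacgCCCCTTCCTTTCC
Rps24, chr14:24490658-24490687, plus strand: acgcccccgcgctggggTCCTTCCTTgcgc
Rpl35, chr2:39005122-39005151, minus strand: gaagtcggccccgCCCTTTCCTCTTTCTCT
Rpl15, chr14:18270977-18271006, minus strand: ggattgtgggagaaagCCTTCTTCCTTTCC
Rpl38, chr11:114668560-114668589, plus strand: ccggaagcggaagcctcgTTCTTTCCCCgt
The ratios of these genes on control array 2 were 0.89, 0.51, 0.37, 0.31 and 0.30 in that order.

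Such a run was present in 16 of 43 ribosomal windows (37.2%), 5 of 58 respiratory chain windows (8.62%) and 9.95% of 27025 RefSeq promoters. CTTNC, the letters within many of these runs, was found on the gene's strand in 44.2% of ribosomal, 27.6% of respiratory chain and 14.4% of all windows, and on either strand in 55.8%, 41.4% and 26.7%. A match describes letters in this window and is no site. Ribosomal genes with the run had a median of 0.25 on control array 2 (16 of 16 above the array median) and those without it 0.23 (24 of 27 above). The shift on control array 2 was thus of similar size with and without a run at the annotated start.

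Respiratory chain subunits were also mostly above the median on control array 2. Of 64 measured subunit genes, 57 lay above the array median there (median 0.31), and on control array 1 37 of 65 did (median 0.03). Complex I, the NADH dehydrogenase, had 27 of 31 genes above on control array 2 (median 0.25), complexes II and III 7 of 9 (0.36), complex IV, the cytochrome c oxidase, 9 of 9 (0.36) and complex V, the ATP synthase, 14 of 15 (0.31). In the values of control array 1, the medians of these groups were 0.03, 0.06, 0.09 and -0.01. At 1.5-fold high on control array 2 were 3 of the 64 genes, against 0.44% of all genes. These were Ndufb4 at 0.72, Cox6c at 0.70 and Atp5j2 at 0.67, and at 0.58 Ndufs7 came just short. Over control array 1, these 4 were at -0.18, 0.28, 0.20 and 0.27.

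The 9 genes of complex IV measured on control array 2 lay between 0.28, for Cox4i1, and 0.70, for Cox6c, there. The 10 measured on control array 1 lay between -0.11, for Cox5a, and 0.50, for Cox8a. Within complex I the 4 genes below the array median of control array 2 were Ndufa10 at -0.27, Ndufs1 at -0.20, Ndufb3 at -0.12 and Ndufv3 at -0.09. Sdhb and Uqcrfs1, the iron-sulfur proteins of complexes II and III, were at -0.05 and -0.03. Ndufc2 was the 1 of 65 respiratory genes at 1.5-fold low on control array 1, against 1.36% of all genes. It was at -0.67 there and at 0.46 on control array 2, each from 1 spot.

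Other mitochondrial families followed in part. Mitochondrial ribosomal proteins had a median of 0.09 on control array 2, with 38 of 56 genes above, and of -0.05 on control array 1, with 23 of 59. Mrps28 was highest on control array 2 at 0.54 and Mrps5 lowest at -0.29. Mitochondrial import genes had a median of 0.17 with 13 of 18 above, from Timm17a at -0.94 to Timm29 at 0.77, each from 1 spot. Enzymes of the tricarboxylic acid cycle, in the same organelle, had a median of -0.09 with 6 of 14 above.

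**Figure D4:**
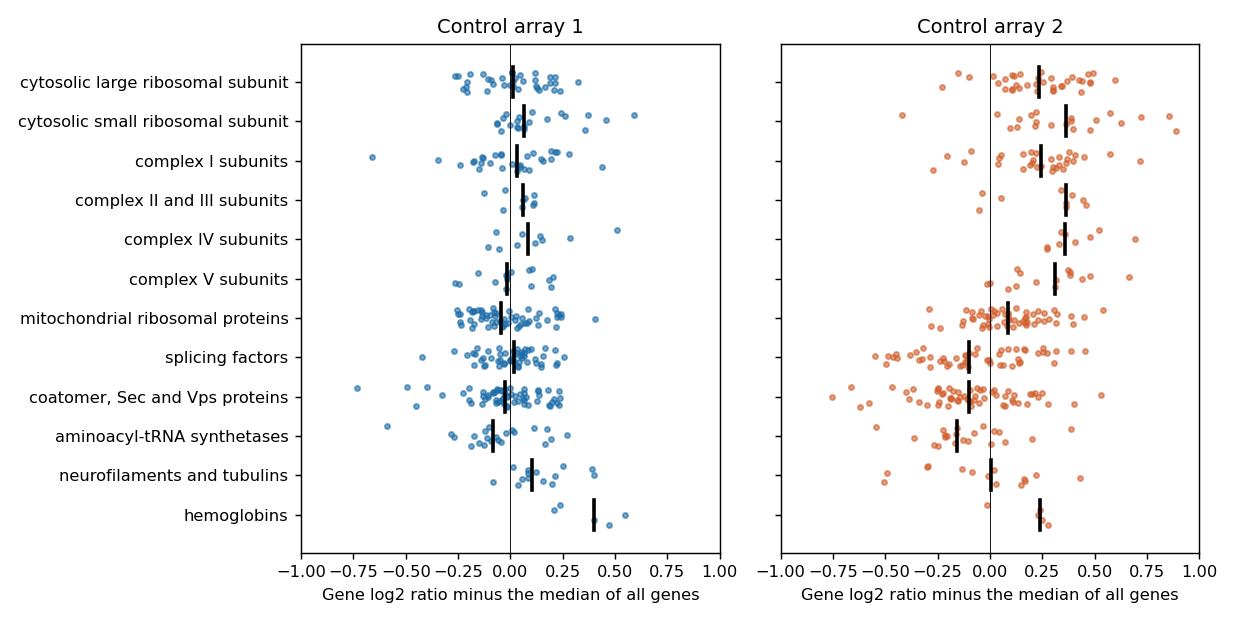
Log2 ratio of each measured gene minus the median of all genes of the array (horizontal axis) for 12 families on control array 1 (left) and control array 2 (right), with bars at the family medians. Ribosomal and respiratory chain genes lie around 0 on control array 1 and to the right on control array 2, with medians from 0.24 to 0.36.

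Genes with a short span in the genome were higher on control array 2 in general. The Spearman correlation of the ratio with the span of the RefSeq gene was -0.23 on control array 2 (8076 genes), and -0.21 without ribosomal and respiratory chain genes (7899 genes). For control array 1, it was 0.02 (8695 genes), and on the AT-EAE arrays -0.06 and 0.03. With genes in 4 equal groups from short to long span, the medians on control array 2 were 0.08, 0.02, -0.03 and -0.06. At 1.5-fold low were 31, 38, 60 and 98 genes, and at 1.5-fold high 21, 7, 7 and 1. Ribosomal and respiratory chain genes had median spans of 3.27 kb and 7.11 kb, against 24.2 kb over all measured genes. Span includes introns and is not the length of the message. The part of transcript length or RNA integrity in this was not tested.

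At least 0.1 below the median of control array 2 were aminoacyl-tRNA synthetases, interleukins, chemokines and splicing factors. Interleukins and their receptors had 0 of 5 genes above (median -0.16), with Il7r at -0.50 and Il6st at -0.33. Chemokines and receptors had 1 of 7 above (median -0.11), with Ccl9 at -0.38 and Ccl11 at 0.22. After subtraction of the place medians the chemokine median was 0.0078. Aminoacyl-tRNA synthetases, which load amino acids on tRNA, had 6 of 21 genes above (median -0.16) and on control array 1 7 of 22 (median -0.08). Wars2, Lars and Ears2 were at -0.54, -0.36 and -0.26 on control array 2 and at -0.11, -0.12 and -0.13 on control array 1. Vars2, second in absolute size on control array 2, lay above, at 0.39 there and 0.17 on control array 1. Coatomer, Sec and Vps genes of vesicle coats and sorting had 20 of 60 above, with a median of -0.098 just short of 0.1. Sec63 was at -0.75, Vps8 at -0.66 and Copa at -0.61, while Vps16 was at 0.54. Splicing factors had 20 of 52 above (median -0.10). Sf3b2, Sf3b1, Sf3a1 and Sf3b5, proteins of the U2 particle, were at -0.55, -0.48, -0.46 and -0.44. Snrpe, a ring-forming Sm protein of the spliceosomal particles, was at 0.46.

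Smaller families above the array median on control array 2 included Hox genes, which hold the positional identity of cord levels. All 11 measured Hox genes lay above (median 0.18), from Hoxc5 at 0.02 to Hoxb3 at 0.78, the latter from 1 spot. Of their 14 measured spots, 11 lay above. Of the 3 Hox genes with several measured spots there, 0 had all spots on the same side of the array median. In the values of control array 1, 7 of 13 Hox genes lay above (median 0.05), with Hoxd10, a lumbar gene, highest at 0.81 from 1 spot. Glutathione S-transferases, which conjugate reactive compounds, had 11 of 13 above (median 0.21), with Mgst3 at 0.55, Gstp3 at 0.46 and Gstm1 at 0.40, and on control array 1 9 of 13 (median 0.07). The immediate early and stress list had 10 of 13 above (median 0.16), with Hspb1 at 0.51 and Ier2 at 0.41 but Ccn1 at -0.62 and Jun at -0.40.

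The hemoglobins had the highest median of the 59 families and lists on control array 1. All 5 hemoglobin genes lay above its median (median 0.40), with Hbb-b1 at 0.54, Hba-a2 at 0.47, Hba-x at 0.39, Hbb-y at 0.23 and Hbb-bh1 at 0.20. For control array 2, 4 of 5 did (median 0.24). Hba-x, Hbb-y and Hbb-bh1 are embryonic globins, and near-identical globin copies can share a spot's signal. Neurofilaments and tubulins, which build the axonal cytoskeleton, had 13 of 14 genes above on control array 1 (median 0.10) and 7 of 14 on control array 2 (median 0.00). Tubb3, the neuronal beta-tubulin, was at 0.39 on control array 1 and Nefm, the medium neurofilament chain, at -0.09. In the values of control array 2, Tubb3 was at 0.23 and Nefm at -0.50.

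MHC class I and antigen loading genes had 6 of 7 above on control array 1 (median 0.18) and 3 of 6 on control array 2 (median -0.09). With B2m at 0.56 went Psmb8 and Psmb9, catalytic subunits of the immunoproteasome, at 0.44 and 0.18. Over control array 2, these were at -0.24, -0.27 and -0.35. Tapbp, the peptide-loading chaperone tapasin, ran the other way, at -0.33 and 0.51. The interferon response list had 4 of 13 genes above on control array 1 (median -0.02) and 4 of 14 on control array 2 (median -0.08). Its member Gbp2, an interferon-induced GTPase, was at 0.76 on control array 1 and -0.38 on control array 2. Socs3, a feedback inhibitor of cytokine signalling, was at 0.16 and -0.19. These 2 do not stand for the list, of which 9 of 13 genes lay below the median on control array 1. The lowest member on control array 2 was Gbp3, at -1.05 from 1 spot, with no value on control array 1. Neurotransmitter receptor genes had 1 of 10 above on control array 1 (median -0.23), all from 1 spot each, with Htr7 at -0.44, Chrna5 at -0.38 and Grin2d at -0.35. The liver list was also low there, with 0 of 7 above (median -0.22). Both lay near the median on control array 2, with 4 of 9 receptor genes above (median -0.01) and 3 of 7 liver genes above (median -0.03).

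The astrocyte list lay above the array median on both control arrays. It had 13 of 17 genes above on control array 1 (median 0.10) and 15 of 18 on control array 2 (median 0.18). For control array 2, Fabp7, a fatty acid binding protein, was at 0.85, glutamine synthetase (Glul, 3 spots) at 0.61, Ndrg2 at 0.58, and the glutamate transporter Slc1a2 at -0.90. The oligodendrocyte and myelin list had medians of 0.11, with 7 of 10 genes above, and -0.03, with 3 of 9 above, with Mbp, myelin basic protein, at 0.28 and -0.18. The neuron list had medians of -0.01, with 7 of 15 genes above, and 0.08, with 10 of 14 above. Its lowest member on control array 2 was Syt1, the synaptic vesicle calcium sensor, at -0.18 and -0.60 on control arrays 1 and 2. The highest there was Nrgn, at 0.10 and 0.47. The microglia and macrophage list had medians of 0.00 and 0.07, with C1qa at 0.43 and C1qc at -0.44 on control array 1 although both chains belong to the same complement molecule. Whether pools differed in their share of any cell type was not tested beyond these lists.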

How the data were processed

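Each array held RNA of 2 extracts of the same group, 1 per channel, per the labels. The authors deposited 1 value per spot, read here as a log2 ratio of normalized channel signals. The values were signed, with medians over genes between -0.07 and 0.01. The sources used here do not state the base of the logarithm, the numerator, background correction, spot filter, normalization or software. Signal over background was not analysed. The 2 arrays per group limit the precision. Columns of no sample numbered 0.

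Spots were assigned to genes through the platform annotation, with symbols updated through gene identifiers for 18267 spots and kept for 244. Measured spots of a gene were averaged. The genes named were, on each control array, the 10 lowest and 10 highest with at least 3 spots of a single sign, the 5 with the widest range, genes at 2-fold on both arrays, the spot called by limma and up to 6 members with the largest ratio per family. All other named genes were picked after their values were seen. The members and the 50 families and 18 marker lists were chosen with earlier results of these data known. The planned families and tests were kept, and the adjustment for place, the crossed block and the removal of a block of spots were added after seeing the data.

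Groups were compared by 2-sided exact permutation over the 6 splits of the 4 arrays, and spots with limma on all 4 arrays with Benjamini-Hochberg adjustment at 0.05. Tested on simulated data with 18146 spots, limma recovered 99 of 100 spots shifted by 1 and 100 of 100 shifted by 2, with 2 false calls. These data were drawn from a normal distribution with the same spread for every spot of an array. They lacked the long lower tail, the place pattern and the streak of the real ratios, so this recovery does not carry over to the real spots. Array numbers, given by order, shared no animals, and deviations of same-numbered arrays correlated at -0.33. Alternatives were the median over spots, genes on both control arrays, genes with at least 2 spots, other thresholds and centring, and leaving out each control array. Fits used limma 3.58.1 in R 4.3.3. Other steps used scipy 1.17.1, pandas 2.3.3 and numpy 2.4.6 in Python 3.11.15, with figures from matplotlib 3.10.9.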

Additional observations from a re-analysis of the deposited data

How the results depend on the processing

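Genes at 2-fold on control array 1 numbered 12, and 6 when limited to genes with values on both control arrays, 2 with at least 2 spots and 149 at 1.5-fold. On control array 2 they numbered 32, and 5 with at least 2 spots and 269 at 1.5-fold. Without the block of spots with the most extremes they numbered 10 and 31. The control minus AT-EAE difference ranged from 18.7 to 27.6 points for the share of spots with a value, from -0.08 to -0.03 for the spread over genes and from -0.11 to 0.067 for the agreement of sister spots when either control array was left out. Limma called 1 spot, and 9 with the control arrays alone, 0 on gene means (414 genes at an unadjusted p under 0.05), and from 38 to 121 without either control array. With array number as a replicate block it called 42, but array numbers pair no samples. With crossed array numbers as the block it called 3. Chemokines and receptors turned from -0.13 to 0.11 on control array 1 with at least 2 spots per gene, and from -0.11 to 0.0078 on control array 2 after subtraction of the place medians. Why these moved was not tested. Of the other results on families and lists, 579 values moved by less than the spread between the control arrays and 107 by more.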
